A study of Mus musculus with 7 samples.

Results

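Amino acid transport and synthesis was examined here through 36 genes, of 48795 in the deposited expression table, in splenic memory B cells (MBCs) and plasma cells (PCs). The genes were taken from a fixed list of names and matched to the table by Ensembl gene ID, and each of them had a row. They comprise 16 transporters, 8 enzymes of serine synthesis and one-carbon metabolism, 9 other enzymes of amino acid synthesis and breakdown, and 3 genes of the response to amino acid starvation. Of the 36, 22 are textbook targets of the transcription factor ATF4. The question was whether transcripts of these groups differed between PCs and MBCs.

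The libraries are bulk RNA sequencing of cells sorted from the spleens of wild-type C57BL/6 mice, 3 libraries of MBCs and 4 of PCs. All mice were female, were 8 to 12 weeks old, received sheep red blood cells into a vein and were studied 10 days later. Before the sort, B cells were enriched on a magnetic column with beads against CD43, and red cells were lysed. The MBC gate took B220+ cells that bore CD38 and CD273 and lacked IgD and CD138. The PC gate took CD138+ cells with little B220 and no IgD. Whether each library came from 1 mouse or from several is not given in the sources used here, so p-values measure the spread between these libraries, which may be in part technical.

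PCs are antibody factories, and an antibody-secreting cell must take up or make every amino acid that it builds into immunoglobulin. Large neutral amino acids enter through heterodimers of a heavy chain, encoded by Slc3a2, and an exchanger such as Slc7a5. Serine can be made from a glycolytic intermediate by Phgdh, Psat1 and Psph, and the Shmt and Mthfd enzymes then pass its carbon to the folate pool that feeds nucleotide synthesis. ATF4 is translated when the kinases of the integrated stress response are active, for instance when an amino acid runs short, and it raises the transcription of many transporters, amino acid synthetic enzymes and tRNA synthetases.

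Values are given as scaled TPM, which is the deposited TPM (read density corrected for gene length and brought to the same total in every library) divided by a library factor, the library's median ratio over 9305 genes detected in every library. The factor was needed because immunoglobulin transcripts took 49.4% to 55.9% of the TPM of PC libraries and 1.65% to 3.16% of that of MBC libraries. Transcripts of the mitochondrial genome differed as well. They took 33.2%, 33.5% and 19.7% of the TPM of MBC replicates 1 to 3 and 8.10% to 9.80% of that of PC libraries. The part of this difference in the results below was not tested. Fold changes are PC minus MBC on log2(scaled TPM + 1), a scale on which low genes appear to change less than they do. The threshold for a call was a limma adjusted p under 0.05 with a log2 fold change of at least 1 in size.

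The 7 PC markers fixed for the check were all called higher in PCs. The library labelled MBC replicate 3 differed from the other MBC libraries in some markers and not in others. Its Cd38, the marker of the MBC gate, was at 6.77 scaled TPM, against 130 and 186 in MBC replicates 1 and 2 and 9.89 to 21.3 in PCs, while Pdcd1lg2, which encodes CD273, was at 2.59 against 43.3 and 24.4. The 7 germinal center (GC) B cell markers summed to 664 scaled TPM in it and to 244 and 270 in the other MBC libraries, and 10 proliferation genes summed to 956 against 162 and 151, with 454 to 678 in PCs. In 4 of the 8 MBC markers, Pax5, Ms4a1, Ptprc and Nt5e, every MBC library, MBC replicate 3 included, lay above every PC library. Ccr6 and Cd80 were lower in MBC replicate 3, at 2.26 and 0.28 scaled TPM, than in the other MBC libraries. Across the genes tested, on log2 values, MBC replicate 3 correlated with PC libraries at 0.70 to 0.78. MBC replicates 1 and 2 did so at 0.54 to 0.56. They correlated with each other at 0.68, and with MBC replicate 3 at 0.69 and 0.68. Results are therefore given with and without MBC replicate 3. The libraries also differed in the number of genes above 0. It was 12983 and 11527 in MBC replicates 1 and 2, 18061 in MBC replicate 3 and 14463 to 16768 in PCs. The part of detection in the correlations was not tested. MBC replicate 2 carried globin and other erythroid transcripts, 4524 scaled TPM over 7 markers, where the other libraries were at 122 or less. T cell markers were at 0 in MBC replicates 1 and 2, summed to 1.34 in MBC replicate 3, and summed to 70.3 to 90.4 in PCs, of which Cd28 was 41.9 to 55.7. Of the 8 T cell markers 3 were tested and called higher in PCs, Cd28, Cd3e (3.86 to 14.2 in PCs and at most 0.66 in MBCs) and Trac (up to 23.1 and at most 0.23, with every PC library above every MBC library), while Cd8a stood at 0 in 3 of the 4 PC libraries and Cd3g at no more than 2.42. Myeloid markers summed to 5.73 to 40.2 in MBCs and to 207 to 313 in PCs, of which Ly6c2 was 184 to 290, and of the 8 of them 1 was called higher. Cd68 was at 17.0 to 25.2 in PCs and 3.41 to 12.3 in MBCs, with no overlap but no call (adjusted p = 0.131), and S100a9 was at 0 in every library. Of the 5 myeloid markers tested, 2 had positive and 3 had negative log2 fold changes, with a median of -0.29. The negative ones were Csf1r (-0.96), Itgam (-0.37) and Lyz2 (-0.29), none of them called. Once MBC replicate 3 was left out, Csf1r was called lower in PCs (-1.79, limma adjusted p = 0.0464). The part of these cells and transcripts in the results below was not tested. In bulk RNA, a smaller number of cells of a type and less RNA per cell cannot be told apart.

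A few genes of the group rose in PCs. Of the 33 members that passed the filter on low values, 7 were called higher in PCs and 0 lower. These were the transporters Slc3a2, Slc7a5, Slc43a1 and Slc38a10, the synthetic enzymes Pycr1 and Asns, and the starvation response gene Chac1. Over all 11573 genes tested, 6.41% were called higher and 2.14% lower. The members' median log2 fold change was 0.99, beside 0.14 over all genes tested. In limma, 13 members were higher and 0 lower at an unadjusted p under 0.05, beside 15.3% and 8.93% of all genes tested. Slc7a11, Slc6a9 and Cbs did not pass the filter and were not tested.

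Without the library labelled MBC replicate 3, 12 members were called higher and 0 lower, while the shares over all genes rose to 13.8% and 7.94%. The members' median log2 fold change then stood 0.99 above that of all genes tested, which was 0.19. The 5 added members were Slc7a7, Phgdh, Psph, Mthfd2 and Gpt2. The 2 MBC libraries left in this fit had the fewest genes above 0, as given above. Of the 36 members, 7 and 11 were at 0 in MBC replicates 1 and 2. In MBC replicate 3 the count was 1, and in each PC library it was 1 or 2. The part of detection in the added calls was not tested. All 7 members called before were among the 12, with log2 fold changes of 2.90 for Slc43a1 (adjusted p = 0.0122), 2.14 for Slc38a10 (adjusted p = 0.0120), 5.05 for Pycr1 (adjusted p = 0.000844), 2.86 for Asns (adjusted p = 0.0239) and 3.57 for Chac1 (adjusted p = 0.00782), and those of Slc3a2 and Slc7a5 are given with their values. In 14 of the 33 members tested, every PC library lay above every MBC library, and in 0 every PC library lay below. Over all genes tested those shares were 13.0% and 8.68%.

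Whether members were called lower depended on the scaling. On TPM as deposited the median of all genes tested was -0.91, so most genes seemed lower in PCs. On that scale 3 members, Slc3a2, Pycr1 and Chac1, were called higher and 4, Slc1a5, Slc38a1, Slc38a9 and Glud1, were called lower, beside 472 and 3018 of all genes. With immunoglobulin genes removed and the rest brought to the same total, 6 members were called higher and 0 lower, beside 393 and 431 of all genes. After quantile normalization the counts were 7 and 0 for members and 675 and 460 for all genes, beside 742 and 248 with the scaling used. The members' median stood above that of all genes by 0.85 with the scaling used, by 1.11 on TPM as deposited, by 1.12 without immunoglobulin genes and by 0.87 after quantile normalization.

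**Figure D1:**
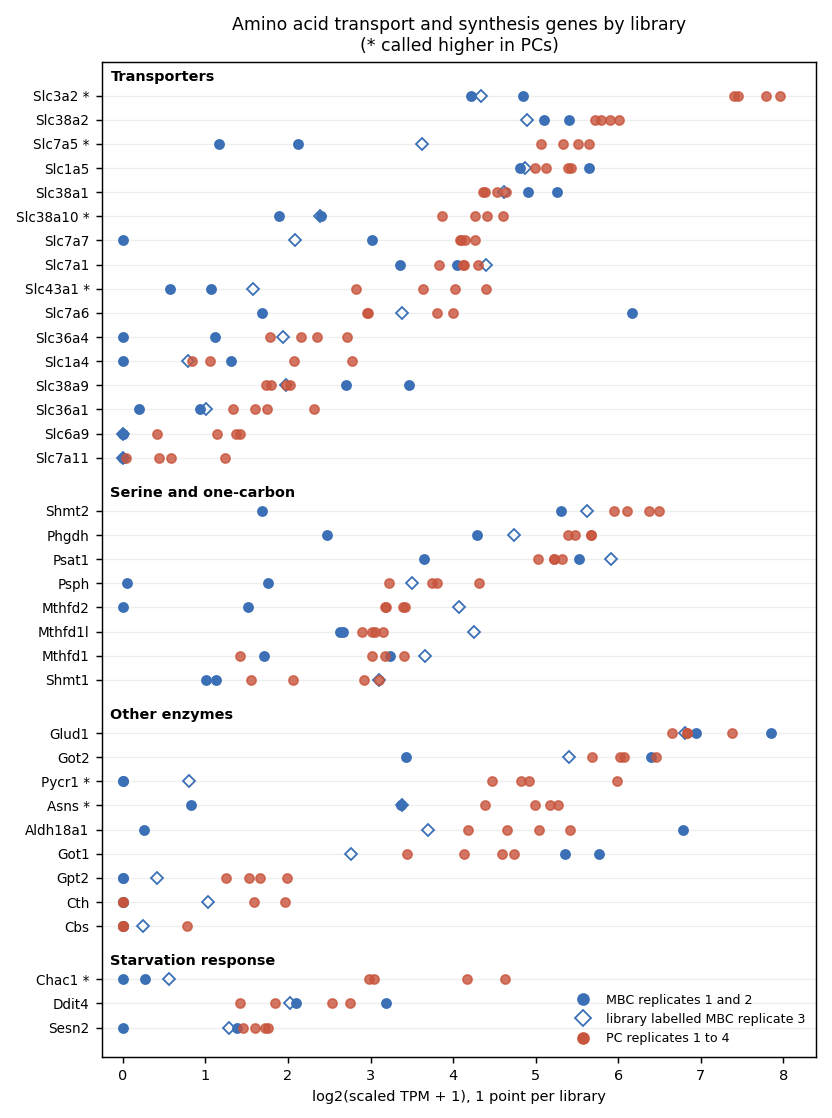
Level of each of the 36 members in each library, as log2(scaled TPM + 1) on the horizontal axis, grouped by role and ordered by the PC mean. Filled blue points are MBC replicates 1 and 2, open diamonds are the library labelled MBC replicate 3, and red points are the 4 PC libraries. The 7 starred members were called higher in PCs, and in each of them every red point lies to the right of every blue one.

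The heavy chain and its exchangers are considered first among the transporters. Slc3a2 (ENSMUSG00000010095, chromosome 19, 8706882 to 8723369, GRCm38) had 27.7, 17.7 and 19.2 scaled TPM in the MBC libraries. It was at 248, 173, 167 and 221 in PC replicates 1 to 4. The lowest PC library stood 6.05-fold above the highest MBC library, and the library labelled MBC replicate 3 lay with the other MBC libraries. The log2 fold change was 3.18 ± 0.32 (SE; adjusted p = 0.000271), and it was 3.12 (adjusted p = 0.000825) without MBC replicate 3. Slc3a2 was called in each of the 18 other ways of fitting.

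Slc7a5 (ENSMUSG00000040010, chromosome 8, 121881150 to 121907694), the exchanger LAT1 that brings in leucine and other large neutral amino acids, was at 1.25, 3.36 and 11.3 scaled TPM in MBCs and at 44.5, 32.5, 49.1 and 39.3 in PCs. The groups did not overlap, and the library labelled MBC replicate 3 was the nearest MBC library to the PCs. On the log2 scale it rose by 3.09 ± 0.57 (SE; adjusted p = 0.00882), and by 3.74 (adjusted p = 0.00112) without that library. The call was lost in 1 of the 18 other ways of fitting, TPM as deposited, with an adjusted p of 0.0509. The ratio of Slc3a2 to Slc7a5, on the length-corrected scale, was 3.41 to 5.61 in PCs and 22.2, 5.26 and 1.70 in MBC replicates 1 to 3.

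Slc43a1 (ENSMUSG00000027075, chromosome 2, 84838850 to 84863594) encodes LAT3, a facilitator of large neutral amino acid transport that needs no heavy chain. It was at 0.48, 1.10 and 1.99 scaled TPM in MBCs and at 6.07, 11.5, 20.0 and 15.3 in PCs, with no overlap. Its log2 fold change was 2.65 ± 0.56 (SE; adjusted p = 0.0179). Leaving out PC replicate 2, 3 or 4 ended the call, with adjusted p up to 0.0741, and over the 18 other ways of fitting it was called in 10, with adjusted p up to 0.107.

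Slc38a10 (ENSMUSG00000061306, chromosome 11, 120103960 to 120151346), a less studied member of the sodium-coupled neutral amino acid transporter family, was at 2.71, 4.29 and 4.24 scaled TPM in MBCs and at 13.6, 20.2, 18.2 and 23.3 in PCs. Every PC library was at least 3.17-fold above every MBC library. On the log2 scale it rose by 2.06 ± 0.43 (SE; adjusted p = 0.0172), and the call was lost without PC replicate 2, 3 or 4, with adjusted p up to 0.0908. Over the 18 other ways of fitting it was called in 11, with adjusted p up to 0.172. An annotated transcript on the opposite strand overlaps its exons, and whether the counting used strand is not given in the sources used here.

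Slc7a7, which encodes y+LAT1, another light chain that pairs with the Slc3a2 product, was at 7.11, 0 and 3.26 scaled TPM in MBCs and at 16.1, 18.2, 16.8 and 15.9 in PCs. The groups did not overlap. Its log2 fold change of 2.44 ± 0.68 (SE) had an adjusted p of 0.0584, and it was 2.64 with an adjusted p of 0.0457 without MBC replicate 3. Slc7a7 was called in 3 of the 18 other ways of fitting. Its exons overlap those of Oxa1l on the opposite strand.

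The other 9 transporters tested were not called. Slc38a2 (SNAT2, a sodium-coupled carrier of small neutral amino acids) and Slc36a1 (PAT1, a proton-coupled carrier of lysosomes) had every PC library above every MBC library, with 51.6 to 63.3 against 28.7 to 41.3 scaled TPM for Slc38a2 and 1.53 to 3.96 against 0.14 to 1.02 for Slc36a1. Their log2 fold changes were 0.72 (adjusted p = 0.191) and 1.03 (adjusted p = 0.215). Slc36a4 (PAT4) and Slc1a4 (ASCT1) were low, with log2 fold changes of 1.23 and 0.99. Slc7a1 (CAT1, the main importer of arginine and lysine) and Slc1a5 (ASCT2, an importer of glutamine) had overlapping groups and log2 fold changes of 0.16 and 0.13, with 95% intervals that covered 0.

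Slc7a6, Slc38a1 and Slc38a9 had negative log2 fold changes that were not called. Slc38a9, which encodes a lysosomal arginine sensor, was at 5.49, 10.0 and 2.94 scaled TPM in MBCs and at 2.34 to 3.05 in PCs, and Slc38a1 (SNAT1) was at 23.6 to 37.1 and 19.6 to 24.0. For both of them MBC replicates 1 and 2 were above every PC library and MBC replicate 3 was among the PCs. Slc7a6 (y+LAT2) was at 70.9 scaled TPM in MBC replicate 2, the library with erythroid transcripts, and at 2.21 to 15.0 in the other 6 libraries. Among the transporters not tested, Slc6a9 (the glycine transporter GlyT1) was listed at 0 in the 3 MBC libraries and at 0.33 to 1.67 in PCs, and Slc7a11 (the cystine importer xCT) was at no more than 0.00487 in MBCs and 0.03 to 1.35 in PCs.

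Of the 14 transporters tested, 4 were thus called higher and 0 lower, with a median log2 fold change of 1.01. Over all genes tested, 6.41% were called higher and 2.14% lower, with a median of 0.14. The 16 transporters summed to 163, 236 and 157 scaled TPM in the MBC libraries and to 483, 411, 425 and 473 in PC replicates 1 to 4. The library labelled MBC replicate 3 was the lowest of the 7 libraries in this sum.

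**Figure D2:**
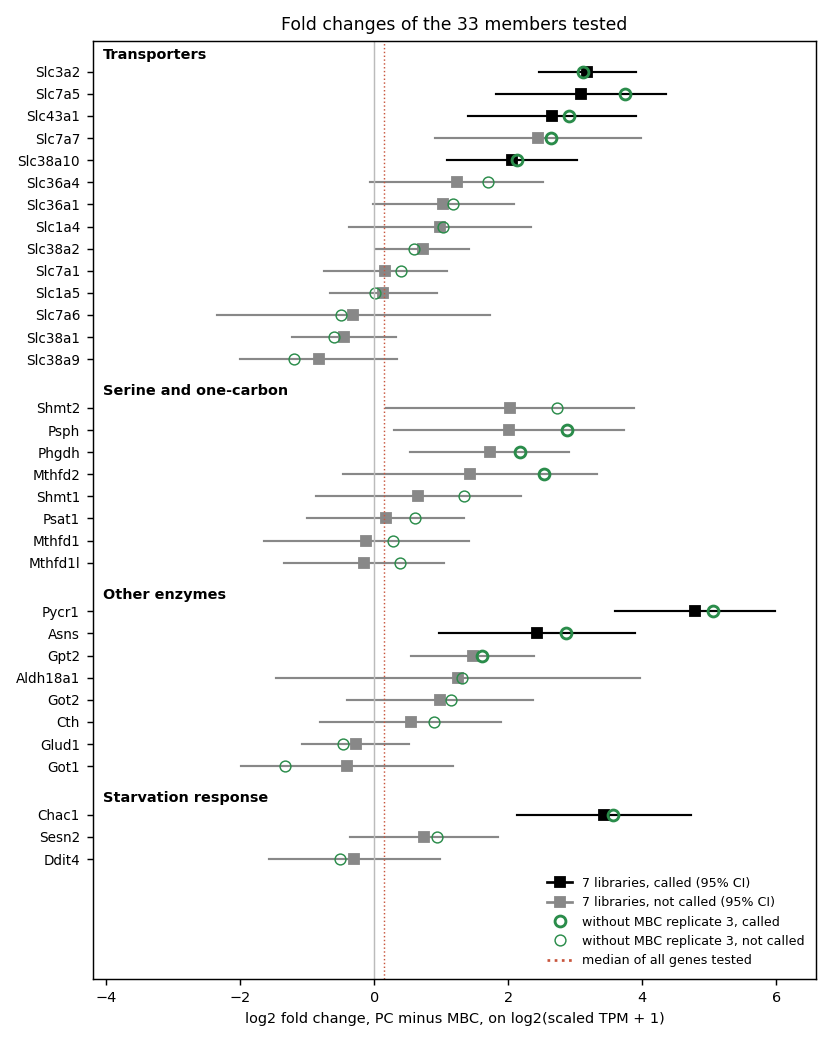
Log2 fold change of each of the 33 members tested, PC minus MBC, on log2(scaled TPM + 1). Squares with lines are the estimates from all 7 libraries with their 95% confidence intervals (black, called), circles are the estimates without the library labelled MBC replicate 3 (thick, called), and the dotted line is the median of all genes tested, 0.14. All 8 serine and one-carbon enzymes have their circle to the right of their square.

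Calls among the enzymes of serine synthesis and one-carbon metabolism depended on MBC replicate 3. With all 7 libraries 0 of the 8 were called higher and 0 lower, and without that library 3 were called higher, Phgdh, Psph and Mthfd2. Of the 18 other ways of fitting, only that 1 called any of these 3. Over all genes tested the share called higher was 6.41% with that library and 13.8% without it. The 8 enzymes summed to 81.5 and 66.5 scaled TPM in the first and second MBC library, to 197 in MBC replicate 3 and to 185 to 221 in PCs. MBC replicate 3 was at or above the lowest PC library in 6 of the 8 enzymes (75.0%), near the 73.9% of all genes tested. MBC replicates 1 and 2 were so in 1 and 2 of the 8, beside 61.2% and 57.2% of all genes tested. The same library also held the largest sum of proliferation genes, given above, and the part of proliferating cells in the level of these enzymes was not tested.

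Phgdh, the first enzyme of serine synthesis, was at 18.5, 4.54 and 25.6 scaled TPM in MBCs and at 49.8, 43.7, 41.0 and 50.0 in PCs. Every PC library was above every MBC library. Its log2 fold change was 1.72 ± 0.53 (SE; adjusted p = 0.0803), and 2.18 (adjusted p = 0.0209) without MBC replicate 3.

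Psat1, which carries out the next step, was at 11.5, 45.1 and 59.3 scaled TPM in MBCs and at 31.7 to 39.1 in PCs, so the groups overlapped. Psph, the last step, was at 2.37, 0.03 and 10.4 in MBCs and at 13.0, 18.9, 8.37 and 12.5 in PCs. In Psph, only MBC replicate 3 reached the PC range. Its log2 fold change was 2.01 ± 0.77 (SE; adjusted p = 0.146), and 2.87 (adjusted p = 0.0164) without that library.

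Shmt2, the mitochondrial enzyme that turns serine into glycine, was the most abundant of the 8 in PCs, at 82.2, 60.9, 67.8 and 88.9 scaled TPM, against 38.5, 2.22 and 48.2 in MBCs. The groups did not overlap, but the spread among MBC libraries was wide, and the log2 fold change of 2.03 ± 0.83 (SE) was not called (adjusted p = 0.170). It was not called without MBC replicate 3 (2.74, adjusted p = 0.0553). Its cytosolic partner Shmt1 was at 1.01 to 7.61 in MBCs and 1.93 to 7.60 in PCs. Exons of Psph, Shmt1, Shmt2 and Mthfd1 overlap annotated genes on the opposite strand.

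Mthfd2, a mitochondrial folate enzyme, was at 1.87, 0 and 15.8 scaled TPM in MBCs and at 9.55, 8.15, 9.72 and 8.04 in PCs. MBC replicate 3 lay above every PC library and the other MBC libraries below. On the log2 scale the difference was 1.43 ± 0.85 (SE; adjusted p = 0.339), and 2.54 (adjusted p = 0.0187) without it. Mthfd1l, its partner in formate release, was at 5.36, 5.18 and 18.1 in MBCs and at 6.42 to 7.92 in PCs, and Mthfd1, the cytosolic enzyme, at 2.28, 8.41 and 11.7 in MBCs and at 1.68, 7.12, 9.56 and 8.02 in PCs. Neither was called, and both changed sign without MBC replicate 3, from -0.16 to 0.38 for Mthfd1l and from -0.12 to 0.28 for Mthfd1.

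**Figure D3:**
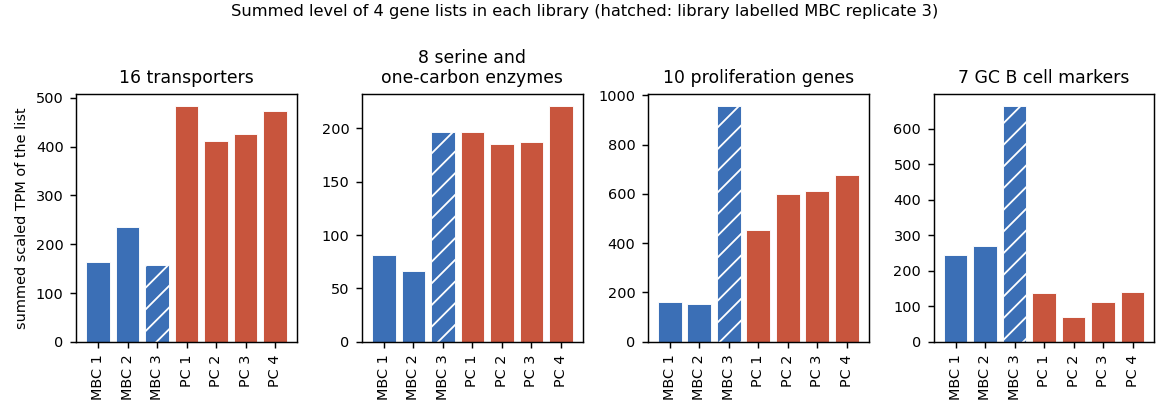
Summed scaled TPM of 4 gene lists in each library, with MBC libraries in blue, PC libraries in red and the library labelled MBC replicate 3 hatched. That library is the lowest of the 7 for the transporters (157), lies within the PC range of 185 to 221 for the serine and one-carbon enzymes (197), and is the highest for the proliferation genes (956) and the GC B cell markers (664).

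Among the other enzymes, Pycr1 and Asns were called. Pycr1 (ENSMUSG00000025140, chromosome 11, 120635712 to 120643769), which catalyzes the last step of proline synthesis in mitochondria, was listed at 0 in the first and second MBC library and had 0.74 scaled TPM in the third. It was at 21.1, 29.4, 62.6 and 27.4 in PCs, so that the lowest PC library stood 28.7-fold above the highest MBC library. The log2 fold change of 4.79 ± 0.53 (SE; adjusted p = 0.000467) was the largest of the members tested, and it depended on the value added before the logarithm, being 7.31 with 0.1 in place of 1. It was called in each of the 18 other ways of fitting.

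Asns (ENSMUSG00000029752, chromosome 6, 7675169 to 7693254), which makes asparagine from aspartate and glutamine, was at 0.78, 9.33 and 9.39 scaled TPM in MBCs and at 35.2, 20.0, 37.7 and 30.8 in PCs. The groups did not overlap. The log2 fold change of 2.43 ± 0.65 (SE; adjusted p = 0.0491) was close to the limit, and it was called in 4 of the 18 other ways of fitting. Leaving out MBC replicate 1 or any 1 of the PC libraries ended the call, with adjusted p up to 0.136, and without MBC replicate 3 the adjusted p was 0.0239.

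Gpt2, the mitochondrial alanine transaminase, was listed at 0 in the first and second MBC library, at 0.33 scaled TPM in the third and at 2.97, 2.16, 1.38 and 1.90 in PCs. Its log2 fold change was 1.47 ± 0.41 (SE; adjusted p = 0.0571), and 1.61 (adjusted p = 0.0419) without MBC replicate 3. Of the 17 other ways of fitting that tested Gpt2, only that 1 called it. Aldh18a1, which starts proline synthesis, had no such pattern. It was at 0.19, 110 and 11.9 scaled TPM in MBCs and at 17.2 to 41.9 in PCs, so its MBC libraries spanned the PC range, and its log2 fold change was 1.25 ± 1.21 (SE; adjusted p = 0.575).

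The transaminases Got1 and Got2, which exchange aspartate and glutamate, and Glud1, the glutamate dehydrogenase, had overlapping groups and were not called. Glud1 was the most abundant of the 3 in each library, at 111 to 229 scaled TPM in MBCs and 99.8 to 165 in PCs. Got1, the cytosolic form, was at 39.9, 53.4 and 5.78 in MBCs and 9.88 to 25.6 in PCs. Its log2 fold change was -0.40 (adjusted p = 0.771), and -1.34 (adjusted p = 0.0684) without MBC replicate 3. Transcripts of the transsulfuration enzymes, which make cysteine from homocysteine, were scarce. Cth was at 0 in 2 of the 4 PC libraries and at no more than 2.90 scaled TPM in any library, and Cbs at no more than 0.71.

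Chac1 was the starvation response gene that was called. Chac1 (ENSMUSG00000027313, chromosome 2, 119351229 to 119354381) encodes an enzyme that degrades glutathione and is a sensitive marker of ATF4 activity. It was at 0, 0.20 and 0.47 scaled TPM in MBCs and at 17.0, 7.22, 23.7 and 6.89 in PCs. The groups did not overlap, and the highest PC library was 3.45-fold above the lowest. On the log2 scale PCs were higher by 3.43 ± 0.58 (SE; adjusted p = 0.00560), and 5.54 with 0.1 added before the logarithm in place of 1. It was called in each of the 17 other ways of fitting that tested it.

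Sesn2, which encodes a leucine sensor upstream of mTORC1, was at 0 to 1.61 scaled TPM in MBCs and 1.74 to 2.38 in PCs, with a log2 fold change of 0.75 (adjusted p = 0.392). Ddit4, whose product REDD1 restrains mTORC1, had overlapping groups, at 3.07 to 8.10 in MBCs and 1.69 to 5.72 in PCs.

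The promoters of Pycr1 and Chac1, the called members with the lowest MBC levels, are printed here because both hold the core letters of the element bound by ATF4 with a C/EBP partner. The letters searched were TGATGNAA, on both strands, where N is any base. The windows are from RefSeq, on build GRCm38.p6, and run from 250 bases before the transcription start to 50 bases after it. The first 2 sequences are the 250 bases before the start, at chr11:120643749-120643998 on the minus strand for Pycr1 and at chr2:119350992-119351241 on the plus strand for Chac1, and capitals mark the match. The other 3 are stretches of 30 bases around the match, at chr6:7693214-7693243 on the minus strand for Asns, at chr3:50443651-50443680 on the minus strand for Slc7a11, and at chr19:43524689-43524718 on the minus strand for Got1. Slc7a11 is shown because it holds 2 matches before the start, and Got1 as a member that did not rise. Slc7a7, not printed, also holds 2 matches in 1 window, of which 1 is not wholly before the start.
Pycr1: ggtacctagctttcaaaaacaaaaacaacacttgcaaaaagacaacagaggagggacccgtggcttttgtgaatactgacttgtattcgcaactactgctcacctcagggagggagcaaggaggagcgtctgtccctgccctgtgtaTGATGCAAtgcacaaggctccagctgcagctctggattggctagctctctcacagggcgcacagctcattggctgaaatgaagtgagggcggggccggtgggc
Chac1: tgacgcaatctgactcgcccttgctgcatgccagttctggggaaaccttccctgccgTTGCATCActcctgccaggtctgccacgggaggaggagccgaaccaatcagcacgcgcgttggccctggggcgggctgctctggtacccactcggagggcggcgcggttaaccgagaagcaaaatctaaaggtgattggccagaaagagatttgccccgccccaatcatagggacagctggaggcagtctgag
Asns: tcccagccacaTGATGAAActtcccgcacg
Slc7a11: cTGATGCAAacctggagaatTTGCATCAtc
Got1: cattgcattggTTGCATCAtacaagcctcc

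Of the 36 members, 32 had a promoter in the table, and Slc7a5, Slc1a5, Slc38a1 and Cth did not. The letters occurred in 7 of the 32, which are Pycr1, Chac1, Asns, Slc7a11, Got1, Slc7a7 and Slc1a4. They occurred in 3.97% of the 32851 promoters of all genes, and in 1 or more promoters of 4.51% of the 27025 genes. Among called members, 3 of 6 with a promoter held them, and among tested members that were not called 3 of 23 did. Of the textbook ATF4 targets with a promoter, 5 of 19 held them, and of the other members 2 of 13 did. The differences between these counts were not tested. Slc3a2, Slc43a1 and Slc38a10 had no match, which says only that these letters were not in this window. In Asns the match lay 16 bases before the RefSeq start, in Pycr1 96 and in Chac1 186, counted from the last base of the match as printed.

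The 22 textbook ATF4 targets among the members were set beside the other 14. Of the 19 targets tested, 5 were called higher and 0 lower, with a median log2 fold change of 1.43. Of the 14 other members, 2 were called higher and 0 lower, with a median of 0.27. Over all genes tested, 6.41% were called higher and 2.14% lower, with a median of 0.14. Without MBC replicate 3 the counts called higher were 9 and 3, beside 13.8% of all genes tested. The medians were then 1.61 and 0.76, beside 0.19 over all genes tested. The difference between the 2 groups of members was not tested. The log2 fold change was above 0 in 18 of the 19 targets and above the all-gene median in 17. In the 14 other members it was above 0 in 7 and above that median in 7. Over all genes tested it was above 0 in 6419 of 11573. Of the 19 targets 14 were not called, among them Slc7a1, Slc1a5, Slc38a2, Psat1, Sesn2 and Ddit4.

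Atf4 itself was at 9.40, 6.67 and 44.4 scaled TPM in MBCs and at 115, 103, 72.0 and 98.2 in PCs. The library labelled MBC replicate 3 lay between the other MBC libraries and the PCs. The log2 fold change was 2.65 ± 0.58 (SE; adjusted p = 0.0201), and 3.44 (adjusted p = 0.000613) without that library. Leaving out a library ended the call in 5 of 7 cases, with adjusted p up to 0.0717. Over the 18 other ways of fitting Atf4 was called in 10, with limma adjusted p up to 0.137. Ddit3, which encodes the stress factor CHOP, was at 0.46, 0.51 and 5.38 in MBCs and at 24.1, 12.6, 16.3 and 6.58 in PCs (log2 fold change 2.59, adjusted p = 0.0469). Its call held in 4 of the 18 other ways of fitting and in 1 of 7 fits that left out a library, with adjusted p up to 0.158. Atf5, a related factor, had a log2 fold change of 2.88 (adjusted p = 0.00719). It was called in 16 of the 18 other ways of fitting, with limma adjusted p up to 0.0730. Trib3, another ATF4 target, was at no more than 0.64 scaled TPM in any library and was not tested.

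Of the 12 tested factors and kinases of the integrated stress response, 3 were called higher and 0 lower. Over all genes tested the shares were 6.41% and 2.14%. Of 18 other one-carbon enzymes, 2 were called higher, the mitochondrial folate dehydrogenase Aldh1l2 (log2 fold change 3.35, adjusted p = 0.00497) and the folate-retaining enzyme Fpgs (1.91, adjusted p = 0.0469). Among the 20 cytosolic aminoacyl-tRNA synthetases 1 was called higher, Nars, which charges asparagine tRNA (1.49, adjusted p = 0.0227). Of 15 enzymes of glutamine, glutathione, proline and branched-chain amino acid metabolism 1 was called higher, Bcat1 (2.96, adjusted p = 0.0339). Of 30 genes through which mTORC1 senses amino acids, 1 was called higher, Sec13 (3.11, adjusted p = 0.0317), and 1 lower, Sesn3 (-2.56, adjusted p = 0.00980). The calls of Aldh1l2 and Sesn3 held in 18 and 17 of the 18 other ways of fitting, while those of Nars, Sec13 and Bcat1 held in 9, 7 and 5 of 18 and that of Fpgs in 2 of 17. Leaving out a library ended the call in at least 1 case for each of these 4, with adjusted p up to 0.0896 for Nars, 0.0945 for Sec13, 0.0968 for Bcat1 and 0.132 for Fpgs. Of 21 other plasma membrane amino acid transporters, 17 did not pass the filter and the 4 tested were not called. The shares called higher were 5.0% of the tRNA synthetases, 6.67% of the glutamine group and 3.33% of the mTORC1 genes. These shares were near or below the 6.41% of all genes tested.

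**Figure D4:**
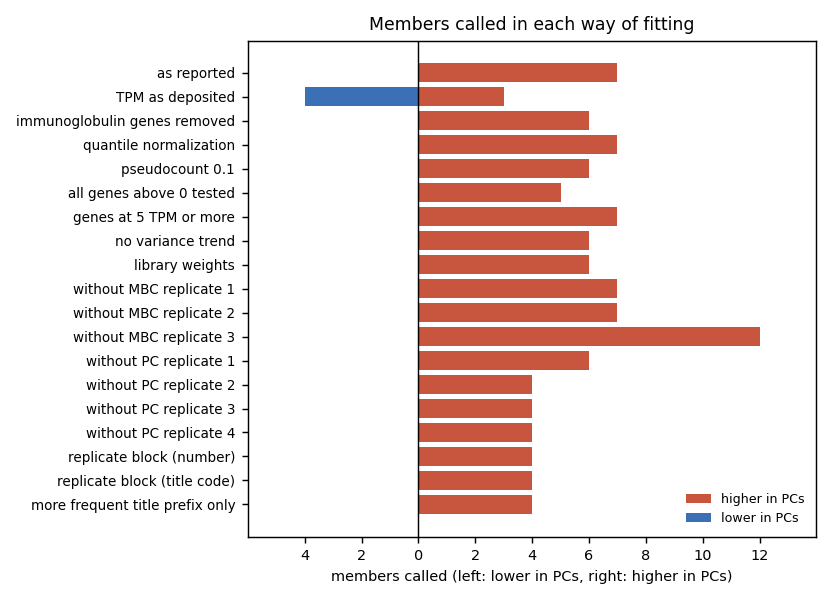
Number of members called higher in PCs (red, to the right) and lower (blue, to the left) with the fit as reported and in each of the 18 other ways of fitting. Between 3 and 12 members were called higher, and members were called lower, 4 of them, only on TPM as deposited.

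Sample titles begin with 1 of 2 prefixes, whose meaning the labels do not give. MBC replicate 3 and PC replicate 4 carry the less frequent one. Within the more frequent prefix, which leaves 2 MBC and 3 PC libraries, 4 members were called higher and 0 lower, Slc3a2, Slc7a5, Pycr1 and Chac1, beside 7.54% and 3.60% of all genes tested. This fit also leaves out MBC replicate 3. In it Phgdh, Psph and Mthfd2 had limma adjusted p of 0.0651, 0.0557 and 0.0607. The other prefix holds 1 library of each group, and no test can be made within it.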

How the data were processed

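Libraries were made from total RNA of sorted cells (Nugen cDNA kit, Illumina HiSeq). The authors deposited TPM for 48795 Ensembl genes, rounded to 2 decimals, with no read totals. The submitters' processing notes name STAR 2.5.2a, RSEM 1.3.0, DESeq2 1.18.1 and the build GRCm38, with no role given. Symbols were matched by gene ID for 48349 genes and coordinates were read from GENCODE M21. Groups and replicate numbers came from the labels. TPM was divided by each library's median ratio to the geometric mean over 9305 genes above 0 in all libraries. A filter of 1 TPM, as deposited, in 3 or more libraries left 11573 genes. These were fitted by limma (version 3.58.1, R 4.3.3; lmFit, then eBayes with trend) without covariates on log2(scaled TPM + 1), with Benjamini-Hochberg adjustment over all of them, and the procedure was tested on simulated data. A gene was called at an adjusted p under 0.05 and a log2 fold change of at least 1 in size. Promoters were searched with Python 3.11.15.

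The 36 members, all lists and the naming rule were chosen with earlier results of these data known. By that rule, library values and full statistics were given for members called with all libraries, or whose call or direction changed without MBC replicate 3. Of the other lists, Atf4, Ddit3 and Trib3 were named, and in each list the called gene with the largest change in each direction and up to 2 more by adjusted p. Values of uncalled members beyond this rule were chosen after they were seen, as were the genes named as sort or cell type markers.

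Depth was estimated from low TPM values of genes with a single transcript, an analysis chosen after seeing the data. The values of 1 TPM in a transcript of 1 kb correspond to 6.20 to 11.6 reads in MBC libraries and 9.44 to 16.4 in PC libraries, and 76.8% to 86.7% of the values used lay within 0.15 of a whole read, where 30.0% would by coincidence. A floor of 3 reads in such a transcript is 0.183 to 0.484 TPM, and it covers counting error only, since amplified reads without molecular identifiers are not independent molecules.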

Additional observations from a re-analysis of the deposited data

Results flagged for a closer look

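Of the 36 members examined in the 4 PC libraries, 1 had a library whose distance from the others, as a share of the group's range, passed Dixon's 95% limit. Cbs, which encodes cystathionine beta-synthase, was at 0.714 scaled TPM in PC replicate 3 and at 0 in the other 3 PC libraries. With the other 3 libraries at 0, any value above 0 would pass this limit, and Cbs did not pass the filter on low values. Chance marks about 1 in 20 groups.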

How the results depend on the processing

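The calls of Slc3a2 and Pycr1 held in all 18 other fits, that of Chac1 in the 17 that tested it, and that of Slc7a5 in 17 of 18. On TPM as deposited 3 members, 1 transporter and 3 ATF4 targets were called higher and 4 members lower, with 472 and 3018 of all genes. With immunoglobulin genes removed all-gene counts were 393 higher and 431 lower, after quantile normalization 460 were lower, with all genes above 0 tested they were 437 and 123, and within the more frequent title prefix 4 members and 2 transporters were higher, with 873 genes higher and 417 lower. Leaving out 1 library gave 4 (PC replicate 2, 3 or 4) to 12 (MBC replicate 3) members higher, 2 to 5 transporters, 0 to 3 serine and one-carbon enzymes, 4 to 9 ATF4 targets, and 451 to 1592 genes higher and 91 to 919 lower. The cause was not tested.

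Samples in the 2 groups share replicate numbers and title codes. With so few libraries, correlations of their deviations from the group means cannot decide whether the samples are paired. Correlations were 0.11, -0.04 and -0.08 by number and 0.11, -0.00436 and 0.22 by code. With a replicate block on the number 4 members and 2 transporters were called higher, with 390 genes higher and 60 lower, and with a replicate block on the title code 4 and 2, with 434 and 83. By number 1 of 3 MBC libraries, and by code 2 of 3, correlated best with the PC library that shared it. With either block Slc38a10, Slc43a1 and Asns were not called. On the title code their limma adjusted p was 0.120, 0.0806 and 0.0773.

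Among members that were not called, directions changed as follows. On TPM as deposited the log2 fold change was -1.09 for Slc7a1, -1.16 for Slc1a5, -0.57 for Slc38a2, -1.11 for Psat1, -0.31 for Shmt1, -0.30 for Got2 and -0.00228 for Sesn2. Without immunoglobulin genes it was -0.11 for Slc7a1, -0.15 for Slc1a5 and -0.11 for Psat1. With library weights it was -0.029 for Slc7a1, 0.19 for Mthfd1 and 0.15 for Ddit4, and within the more frequent prefix 0.14 for Mthfd1 and 0.34 for Mthfd1l. Leaving out 1 library gave -0.12 to 0.40 for Slc7a1, -1.34 to 0.90 for Slc7a6, -0.016 to 0.40 for Slc1a5, -0.52 to 0.61 for Psat1, -0.69 to 0.33 for Mthfd1, -0.43 to 0.38 for Mthfd1l, -1.34 to 0.17 for Got1, -0.42 to 2.85 for Aldh18a1, -0.47 to 0.048 for Glud1 and -0.50 to 0.077 for Ddit4. Depth limits Slc7a11, Slc6a9 and Cbs most, at no more than 1.67 scaled TPM in any library.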

Other observations

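Isozyme pairs of the mitochondrion and the cytosol were compared within each library as ratios of scaled TPM, which are corrected for gene length. Shmt2 exceeded Shmt1 in all 7 libraries, by 8.91-fold to 42.5-fold in PCs and by 32.3-fold, 2.20-fold and 6.33-fold in MBC replicates 1 to 3, so the groups overlapped. Mthfd2 stood at 1.00 to 5.67 times Mthfd1 in PCs and at 0.820, 0 and 1.36 times in MBCs. Got2 stood at 2.58 to 5.08 times Got1 in PCs and at 0.244, 1.56 and 7.12 times in MBCs. These ratios were chosen after the data were seen and were not tested.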
